A study of Homo sapiens with 6 samples.

Results

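The 10 genes described here encode the hypoxia-inducible factor (HIF) subunits HIF1A, EPAS1 and ARNT, the ubiquitin ligase subunit VHL, the HIF prolyl hydroxylases EGLN1, EGLN2 and EGLN3, the HIF asparaginyl hydroxylase HIF1AN, and the collagen prolyl 4-hydroxylase subunits P4HA1 and P4HA2. They were listed by name, by a rule that uses no measured value but that was set with earlier results of these data known, and are 10 of the 62252 genes to which the transcripts could be assigned. Together they carry 108 of the 251612 annotated transcripts. The data are 6 poly-A RNA-seq libraries of K562, an erythroid leukemia cell line. The shCtrl group (3 libraries) carried a lentiviral short hairpin RNA against luciferase, and the shPCBP1 group (3 libraries) carried one against PCBP1, an RNA-binding protein that prefers C-rich sequence and also delivers iron to other proteins. All cells received 8 µg/mL polybrene overnight and then 3 µg/mL puromycin for 4 days, so both groups were selected populations of transduced cells. The labels do not say whether the libraries of a group came from separate transductions, so p-values measure the spread between these libraries.

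HIF is a dimer of an oxygen-regulated alpha subunit and a constant beta subunit. When oxygen and iron are at hand, EGLN enzymes hydroxylate prolines of the alpha subunit, VHL then binds it, and it is degraded. HIF1AN hydroxylates an asparagine that blocks coactivator binding, and P4HA enzymes use the same iron and 2-oxoglutarate chemistry on collagen in the endoplasmic reticulum. Because the alpha subunits are governed mainly as proteins, RNA levels alone do not report HIF activity.

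The libraries held between 67066747 and 140522444 estimated read counts, with all 3 shPCBP1 libraries among the 4 smallest. PCBP1 RNA, the target of the hairpin, was at 40566, 38409 and 37799 normalized counts in shCtrl and at 6625, 7277 and 7221 in shPCBP1, a log2 fold change of -2.47 (SE 0.044, edgeR quasi-likelihood adjusted p = 2.21e-14). A normalized count is an estimated count divided by the library's size factor, so it can be compared between libraries of 1 gene but not between genes. Of 7 erythroid markers, all were detected, and their summed level ranged from 21000 to 24900 TPM (a relative level that is scaled for transcript length) in shCtrl and from 23400 to 24400 TPM in shPCBP1. Most of that sum was HBG1 and HBG2, with means of 7860 and 13800 TPM in shCtrl. In the DESeq2 test described below, 2 of the 7 passed, against 29.2% of all genes. These were TAL1 (log2 fold change 0.19, adjusted p = 2.13e-05) and HBG1 (0.16, adjusted p = 0.00379), both higher in shPCBP1. The 4 lymphoid and monocyte markers summed to between 1.66 and 3.20 TPM in any library, with MS4A1 at 0 in 5 of 6 libraries. In bulk RNA, fewer cells that express a gene and less RNA per cell cannot be told apart.

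Across the 10 genes, changes were small and ran both ways. In summed counts, HIF1A, EPAS1 and HIF1AN were higher in shPCBP1, and P4HA1 and P4HA2 were lower. These calls are from a DESeq2 Wald test, two-sided, at a Benjamini-Hochberg adjusted p under 0.05 over all genes. All 10 genes passed the filter on low counts, and 5 of the 10 passed the test (3 higher, 2 lower), against 29.2% of the 18211 genes with an adjusted p (16.5% higher, 12.7% lower). In the edgeR quasi-likelihood test 5 members passed, against 15.9% of the 28848 genes entered. That set is wider than the 18211 and includes genes of low count, so the 2 percentages are not alike. At an unadjusted DESeq2 p under 0.05 the count was 7 of 10, against 37.6% of the 18211 genes. The 2 groups did not overlap for 6 members, against 42.6% of all genes tested. With the study's added threshold of an absolute log2 fold change over 1, 0 of the 10 were called by DESeq2 and 0 by edgeR, where 1.5% of all genes were called by DESeq2. The median log2 fold change of the 10 was 0.09, and that of all genes tested was 0.00. With the average transcript length of each library in the fit, HIF1A, EPAS1 and HIF1AN did not pass, while P4HA1 and P4HA2 did.

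**Figure D1:**
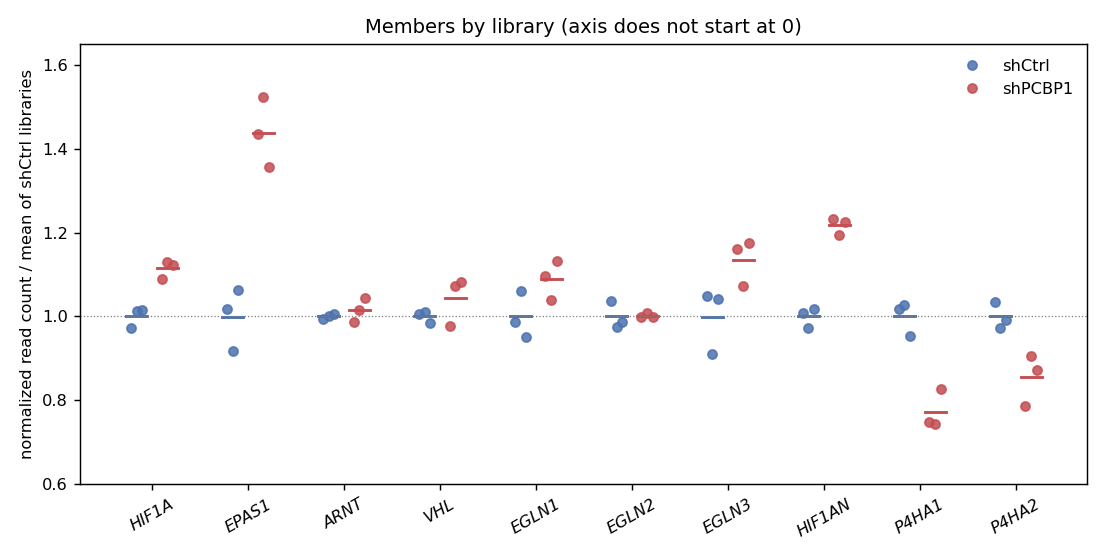
Normalized read count of each member divided by its mean over the 3 shCtrl libraries (y axis, which does not start at 0), with points for libraries and short lines for group means. The shPCBP1 points of EPAS1 and HIF1AN lie above all shCtrl points and those of P4HA1 and P4HA2 lie below them, while ARNT and EGLN2 overlap.

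EPAS1 (HIF-2 alpha, chr2:46293667-46386697, plus strand, GRCh38) was the member with the largest difference in summed counts. Its normalized counts were 2099, 1894 and 2192 in shCtrl and 2958, 3140 and 2797 in shPCBP1. Every shPCBP1 library was above every shCtrl library. The log2 fold change was 0.52 (SE 0.074, 95% interval 0.38 to 0.67, DESeq2 adjusted p = 5.77e-11), a 1.44-fold higher summed count. With the average transcript length of each library in the fit, EPAS1 was at 0.07 (DESeq2 adjusted p = 0.759). HIF1A (HIF-1 alpha, chr14:61695513-61748259, plus strand) had 4061, 4225 and 4235 normalized counts in shCtrl and 4548, 4720 and 4687 in shPCBP1. The groups did not overlap, and the log2 fold change was 0.16 (SE 0.051, DESeq2 adjusted p = 0.00973). That call was lost without shCtrl replicate 1 (adjusted p = 0.0535) and without shPCBP1 replicate 2 (adjusted p = 0.0544). With average transcript lengths in the fit, HIF1A was at 0.06 (DESeq2 adjusted p = 0.605). HIF1A-AS3, an antisense gene that shares 267 of the 3946 exon bases of HIF1A-202, differed by -0.03 (adjusted p = 0.855). Whether the library preparation kept strand is not given in the sources used here, so reads over those shared bases cannot be told apart.

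ARNT (HIF-1 beta, the shared dimer partner, chr1:150809713-150876708, minus strand) had 6524, 6567 and 6606 normalized counts in shCtrl and 6475, 6671 and 6856 in shPCBP1. The groups overlapped, and the log2 fold change of 0.02 had a 95% interval from -0.07 to 0.11 (DESeq2 adjusted p = 0.783). The interval of EPAS1 lay above that of ARNT, while those of HIF1A and ARNT overlapped, and the differences between genes were not themselves tested.

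VHL (substrate receptor of the ligase that marks hydroxylated HIF alpha, chr3:10141778-10153667, plus strand) had 17794, 17911 and 17422 normalized counts in shCtrl and 17301, 19007 and 19158 in shPCBP1. The shPCBP1 library of replicate 1 lay below all shCtrl libraries and the other 2 lay above them. The log2 fold change was 0.06 (95% interval -0.02 to 0.15, DESeq2 adjusted p = 0.305). Without shPCBP1 replicate 1 it was 0.11 and passed the test (adjusted p = 0.0175).

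The 3 EGLN enzymes, which sense oxygen, did not pass the test. EGLN1 (PHD2, the main HIF prolyl hydroxylase in many cells, chr1:231363751-231422287, minus strand) had 4668, 5019 and 4502 normalized counts in shCtrl and 5182, 4918 and 5353 in shPCBP1, a log2 fold change of 0.12 (95% interval 0.01 to 0.24, DESeq2 adjusted p = 0.0883). The high shCtrl replicate 2 and the low shPCBP1 replicate 2 overlapped, and without shCtrl replicate 2 the log2 fold change was 0.17 (adjusted p = 0.0154). EGLN3 (PHD3, itself a HIF target, chr14:33924227-34462774, minus strand) had 2199, 1909 and 2182 in shCtrl and 2433, 2248 and 2463 in shPCBP1. The groups did not overlap, and the log2 fold change was 0.18 (95% interval 0.03 to 0.33, DESeq2 adjusted p = 0.0565). Without shPCBP1 replicate 2 it was 0.22 (adjusted p = 0.0486).

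EGLN2 (PHD1, chr19:40798996-40808434, plus strand) had 10931, 10276 and 10411 normalized counts in shCtrl and 10519, 10621 and 10529 in shPCBP1. The shPCBP1 libraries lay within the shCtrl range. The log2 fold change was 0.00 (95% interval -0.08 to 0.08, DESeq2 adjusted p = 0.981). The readthrough gene RAB4B-EGLN2 shares 2012 of the 2100 exon bases of EGLN2-201, so the split of reads between them is uncertain. With both genes summed the log2 fold change was -0.0002 (adjusted p = 0.998). EGLN1 also shares 3004 of the 4335 exon bases of EGLN1-201 with an unnamed coding gene on the same strand, to which 3.7 reads per library were assigned on average.

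HIF1AN (factor inhibiting HIF, chr10:100529072-100559998, plus strand) had 3870, 3733 and 3902 normalized counts in shCtrl and 4727, 4583 and 4699 in shPCBP1. The libraries of each group were close together and the groups did not overlap. The log2 fold change was 0.28 (SE 0.051, 95% interval 0.18 to 0.38, DESeq2 adjusted p = 4.68e-07), a 1.22-fold higher summed count. With average transcript lengths in the fit, HIF1AN was at 0.57 and did not pass (SE 0.248, DESeq2 adjusted p = 0.0827). Among the 4 HIF hydroxylases, HIF1AN was thus the one that passed the test on summed counts.

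P4HA1 (catalytic alpha subunit of collagen prolyl 4-hydroxylase, chr10:73007217-73096974, minus strand) had 3785, 3819 and 3546 normalized counts in shCtrl and 2785, 2761 and 3072 in shPCBP1. Every shPCBP1 library was below every shCtrl library, and the log2 fold change was -0.37 (SE 0.064, 95% interval -0.50 to -0.25, DESeq2 adjusted p = 9.84e-08). P4HA2 (the second alpha subunit, chr5:132190147-132295315, minus strand) had 3653, 3432 and 3499 in shCtrl and 2774, 3198 and 3081 in shPCBP1. The groups did not overlap, and the log2 fold change was -0.23 (95% interval -0.35 to -0.10, DESeq2 adjusted p = 0.0032). Both collagen enzymes thus fell while none of the 4 HIF hydroxylases did.

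Per length, EGLN2 and VHL were the most abundant members. In shCtrl, gene levels were 69.3 ± 2.92 TPM (SD, n = 3) for EGLN2 and 68.5 ± 1.16 for VHL, and the ranges of these neighbours overlapped. ARNT followed at 22.8 ± 1.18 TPM, above P4HA1 at 19.3 ± 0.92, HIF1A at 18.7 ± 1.06, P4HA2 at 18.5 ± 0.884 and EGLN1 at 17.2 ± 1.59. The ranges of P4HA1, HIF1A and P4HA2 each overlapped that of the next gene in this order. EGLN3 (12.5 ± 0.317 TPM), EPAS1 (8.97 ± 1.23 TPM) and HIF1AN (5.72 ± 1.64 TPM) were the lowest and did not overlap their neighbours. In shPCBP1, 5 of the 10 members held the same rank, and EPAS1 and HIF1AN remained the 2 lowest at 9.29 ± 0.956 and 8.39 ± 0.207 TPM.

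The size of the EPAS1, HIF1A and HIF1AN differences depended on how reads were divided among transcripts. When the gene fit was given the average effective transcript length of each library, the log2 fold change of EPAS1 was 0.07 (DESeq2 adjusted p = 0.759) and that of HIF1A was 0.06 (adjusted p = 0.605). For HIF1AN it was 0.57 with a wider error (SE 0.248, adjusted p = 0.0827). P4HA1 (-0.33, adjusted p = 0.00213) and P4HA2 (-0.25, adjusted p = 0.00691) passed the test there as well. With transcripts annotated as protein coding alone, EPAS1 was at 0.69 (adjusted p = 4.94e-15), HIF1A at 0.15 (adjusted p = 0.0215) and HIF1AN at 0.24 (adjusted p = 2.64e-05).

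**Figure D2:**
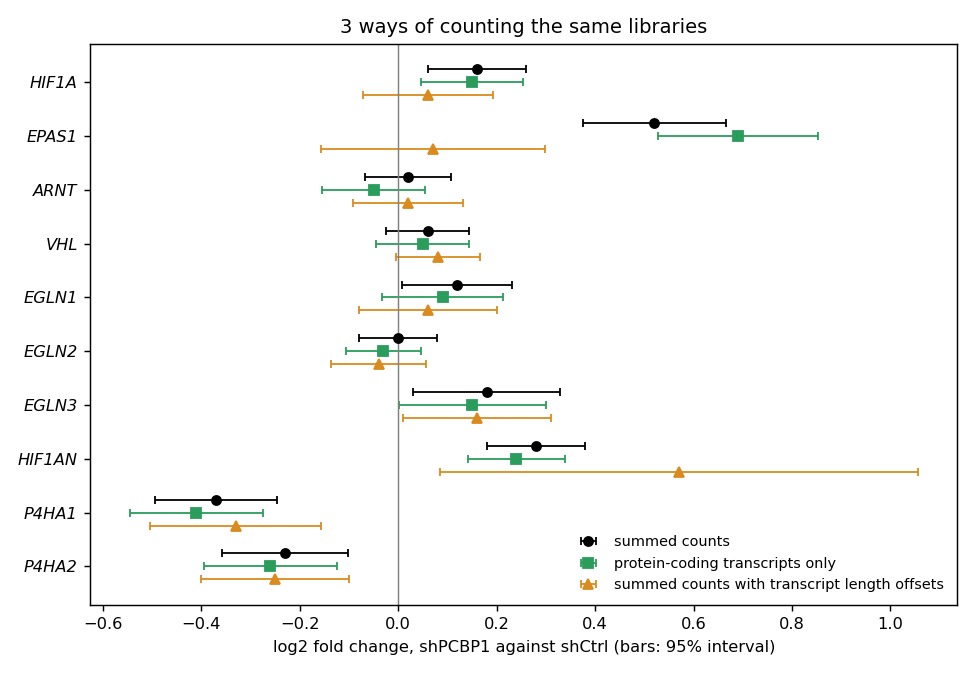
Log2 fold change of each member in shPCBP1 against shCtrl (x axis) with 95% intervals, from summed counts (black circles), from protein-coding transcripts alone (green squares) and from summed counts with transcript length offsets (orange triangles). With length offsets EPAS1 moves from 0.52 to 0.07 and HIF1AN from 0.28 to 0.57, while P4HA1 and P4HA2 stay below 0 in all 3.

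The length-based fit moved together with the transcript make-up of EPAS1. The full-length coding transcript EPAS1-201 (5155 bases) was at 3.92, 3.69 and 3.93 TPM in shCtrl and at 6.22, 6.75 and 5.71 TPM in shPCBP1. All shPCBP1 libraries were above all shCtrl libraries, and its log2 fold change in counts was 0.71 (SE 0.092, DESeq2 adjusted p = 1.28e-12, edgeR adjusted p = 0.0442). The remaining 9 EPAS1 transcripts, 4 of them annotated as retained introns, summed to 5.66, 3.87 and 5.84 TPM in shCtrl and to 2.49, 2.02 and 4.68 TPM in shPCBP1. Those ranges overlapped. The coding share of EPAS1 TPM was 40.9%, 48.8% and 40.2% in shCtrl and 71.4%, 77.0% and 55.0% in shPCBP1, without overlap. In the limma test of shares EPAS1-201 did not pass (adjusted p = 0.225). The coding shares of HIF1A (68.8% to 78.4% against 78.5% to 83.3%) and VHL (73.5% to 75.6% against 77.7% to 78.8%) did not overlap either, and those of the other members did. Gene TPM of EPAS1, in which a short transcript weighs as much per molecule as a long one, was 9.58, 7.56 and 9.77 in shCtrl and 8.71, 8.76 and 10.4 in shPCBP1, with overlap. The retained-intron transcript EPAS1-210 (657 bases) was at 2.65, 0.721 and 1.83 TPM in shCtrl and was listed at 0 in 2 shPCBP1 libraries and at 1.97 TPM in replicate 3 (DESeq2 adjusted p = 0.839). It passed the DESeq2 test without shPCBP1 replicate 3 (adjusted p = 6.67e-05), where both remaining shPCBP1 libraries were at 0. With all 6 libraries its edgeR adjusted p was 0.88.

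HIF1AN and HIF1A had short non-coding transcripts of uneven level as well. HIF1AN-201, the coding transcript of 12927 bases, was at 3.47, 3.56 and 3.49 TPM in shCtrl and at 4.17, 4.11 and 4.27 TPM in shPCBP1, a log2 fold change of 0.26 in counts (SE 0.036, DESeq2 adjusted p = 4.80e-11, edgeR adjusted p = 0.107). HIF1AN-203, a transcript of 708 bases annotated for nonsense-mediated decay, was at 3.32, 0 and 1.75 TPM in shCtrl and at 2.41, 3.82 and 3.43 TPM in shPCBP1. Its value of 0 in shCtrl replicate 2 put the average effective length of HIF1AN at 11507 bases there, against 6393 and 7274 in the other shCtrl libraries and 6244 to 6590 in shPCBP1. For HIF1A the retained-intron transcript HIF1A-205 (711 bases) was at 5.12, 5.58 and 3.44 TPM in shCtrl and at 2.55, 3.51 and 2.34 TPM in shPCBP1 (DESeq2 adjusted p = 0.143), overlapping in 1 library of each group. Without shCtrl replicate 3 its log2 fold change was -0.92 (DESeq2 adjusted p = 0.0326), and with all 6 libraries its edgeR adjusted p was 0.507. The main coding transcript HIF1A-202 was at 9.64, 10.6 and 10.3 TPM in shCtrl and 8.96, 11.1 and 11.3 TPM in shPCBP1 and also overlapped.

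Of the 108 member transcripts, 76 had a summed count of at least 10 and 72 an adjusted p, and 4 passed the transcript test, namely EPAS1-201, HIF1AN-201, P4HA1-203 and P4HA2-201, against 9.27% of the 105847 transcripts with an adjusted p. In the edgeR test 2 passed, EPAS1-201 and P4HA1-203, against 0.544% of the 125556 transcripts entered. P4HA1-203 was at 13.7, 14.6 and 12.3 TPM in shCtrl and at 8.31, 8.08 and 9.60 TPM in shPCBP1. Its groups were far apart, and its log2 fold change in counts was -0.66 (SE 0.089, DESeq2 adjusted p = 1.71e-11, edgeR adjusted p = 0.0427). P4HA2-201 was at 5.66, 5.60 and 5.33 TPM in shCtrl and at 3.64, 4.55 and 3.97 TPM in shPCBP1, a log2 fold change of -0.42 (DESeq2 adjusted p = 0.00177, edgeR adjusted p = 0.228). P4HA1-201, named after its values were seen, was at 0.693, 1.44 and 0.303 TPM in shCtrl and at 1.74, 2.38 and 2.18 TPM in shPCBP1. Its log2 fold change in counts was 1.38 (DESeq2 adjusted p = 0.0774, edgeR adjusted p = 0.457). P4HA1-201 and P4HA1-203 differ in sequence at their ends alone. With both summed, an alternative chosen after seeing the data, the log2 fold change was -0.42 (DESeq2 adjusted p = 0.000603). For the share of a transcript within its gene (limma on log2 TPM ratios), 0 of the 31 member transcripts tested passed and 5 had an unadjusted p under 0.05, against 0.773% and 13.6% of the 38939 tested. The lowest adjusted p among them was 0.174, for P4HA1-201.

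Of the 24 member transcripts that held at least 10% of their gene's TPM on average, the other 20 did not pass. EGLN1-201, the main coding transcript of EGLN1, was at 13.2, 14.5 and 12.9 TPM in shCtrl and at 14.9, 14.3 and 15.4 TPM in shPCBP1, with overlap through replicate 2 of either group (log2 fold change in counts 0.14, DESeq2 adjusted p = 0.062). It passed without shCtrl replicate 2 (adjusted p = 0.00604) or without shPCBP1 replicate 2 (adjusted p = 0.0226). HIF1A-203, a coding transcript close to HIF1A-202, was at 2.97, 2.31 and 2.96 TPM in shCtrl and at 5.49, 2.93 and 4.03 TPM in shPCBP1 (DESeq2 adjusted p = 0.173). Replicate 2 was its lowest library in both groups, and it passed without shPCBP1 replicate 2 (0.77, adjusted p = 0.01). P4HA2-202 was at 3.46, 3.63 and 3.24 TPM in shCtrl and at 2.27, 3.35 and 2.60 TPM in shPCBP1 (DESeq2 adjusted p = 0.203). It too passed without shPCBP1 replicate 2 (-0.50, adjusted p = 5.54e-06). These passes are from DESeq2, and edgeR was not run with 1 library left out. In such DESeq2 fits 6 to 10 member transcripts passed in place of 4. The share of all transcripts that passed in them is not given here, so single passes of this kind cannot be weighed against it. With all 6 libraries, edgeR adjusted p-values were 0.523 for EGLN1-201, 0.536 for HIF1A-203 and 0.503 for P4HA2-202. EGLN2-201, which carried 85.1% of EGLN2 TPM, was at 59.8, 57.6 and 58.9 TPM in shCtrl and at 55.8, 57.7 and 56.0 TPM in shPCBP1. EGLN3-201 was at 8.46, 7.33 and 8.44 TPM in shCtrl and at 9.14, 8.30 and 9.58 TPM in shPCBP1, and both of these main EGLN transcripts overlapped between the groups.

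**Figure D3:**
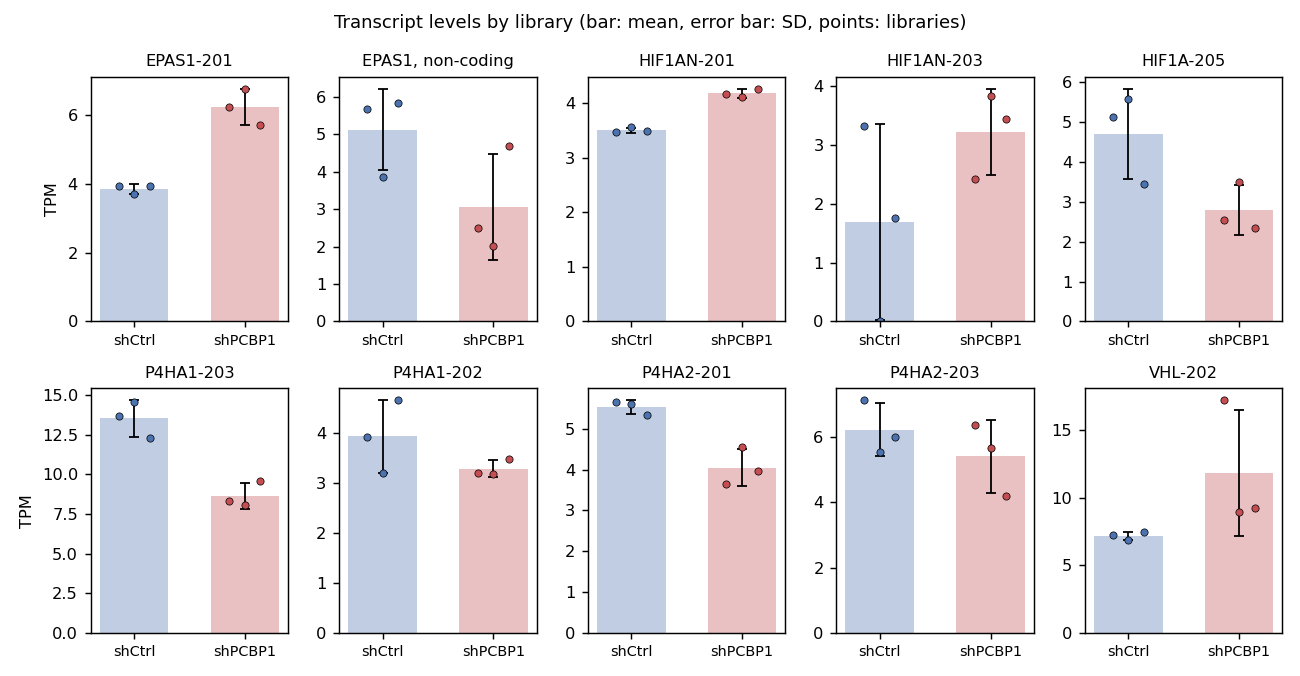
TPM of single transcripts, and of the summed non-coding EPAS1 transcripts, in shCtrl (blue) and shPCBP1 (red), with bars for means, error bars for SD and points for libraries. EPAS1-201 and HIF1AN-201 are higher and P4HA1-203 and P4HA2-201 lower in all 3 shPCBP1 libraries, and VHL-202 has 1 shPCBP1 library at 17.2 TPM.

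Both collagen hydroxylase genes have a pair of coding exons of which a transcript carries one, and these exons set the transcript forms apart. They are printed 5′ to 3′ on the transcribed strand, from GRCh38, with capitals for bases that are not matched in a global alignment with the other exon of the pair.

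P4HA1-203 exon, chr10:73043887-73043957, minus strand: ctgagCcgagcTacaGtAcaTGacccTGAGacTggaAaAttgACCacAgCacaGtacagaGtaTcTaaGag
P4HA1-202 exon, chr10:73044981-73045051, minus strand: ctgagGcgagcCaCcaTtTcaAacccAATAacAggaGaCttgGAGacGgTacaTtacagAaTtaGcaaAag
P4HA2-201 exon, chr5:132198206-132198271, minus strand: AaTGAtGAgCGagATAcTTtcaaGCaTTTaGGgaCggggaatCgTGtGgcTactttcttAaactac
P4HA2-203 exon, chr5:132198321-132198380, minus strand: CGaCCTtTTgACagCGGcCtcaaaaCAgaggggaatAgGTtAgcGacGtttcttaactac

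The 2 P4HA1 exons have 71 bases each and match at 48 of 73 aligned positions. The P4HA2 exons have 66 and 60 bases and match at 39 of 68. Summed over the transcripts that hold it, the P4HA1-203 exon was at 14.6, 16.0 and 12.6 TPM in shCtrl and at 10.3, 10.5 and 11.8 TPM in shPCBP1. The exon's share of both forms was 78.8%, 83.4% and 73.1% in shCtrl and 76.3%, 76.8% and 77.2% in shPCBP1, so the shPCBP1 libraries lay within the shCtrl range. The share of the P4HA2-201 exon was 32.9%, 34.7% and 36.2% in shCtrl and 27.8%, 31.1% and 33.7% in shPCBP1, with overlap. For P4HA1-202, carrying the other P4HA1 exon, TPM was 3.92, 3.20 and 4.65 in shCtrl and 3.20, 3.17 and 3.48 in shPCBP1. With all 6 libraries it did not pass (DESeq2 adjusted p = 0.444, edgeR adjusted p = 0.57). It passed the DESeq2 test without shCtrl replicate 2 (-0.42, adjusted p = 0.0283).

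VHL-202 lacks the middle coding exon of VHL, which is printed here in capitals with 10 intron bases on either side because it tells VHL-202 from VHL-201.

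VHL middle exon, chr3:10146514-10146636, plus strand: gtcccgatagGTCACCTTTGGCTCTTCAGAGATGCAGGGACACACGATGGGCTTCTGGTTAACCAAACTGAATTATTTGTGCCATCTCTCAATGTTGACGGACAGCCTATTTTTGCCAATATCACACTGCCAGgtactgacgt

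VHL-202 was at 7.24, 6.87 and 7.45 TPM in shCtrl and at 17.2, 8.95 and 9.25 TPM in shPCBP1. The groups did not overlap, but shPCBP1 replicate 1 stood apart from the other 2 shPCBP1 libraries. Its log2 fold change in counts was 0.72 (SE 0.265, DESeq2 adjusted p = 0.0671, edgeR adjusted p = 0.453), and it was 0.33 without that library (DESeq2 adjusted p = 0.00421). It also passed without shPCBP1 replicate 2 (0.88, adjusted p = 0.0193) or replicate 3 (0.87, adjusted p = 0.0232). VHL-201, which holds the exon, was at 42.8, 44.3 and 40.6 TPM in shCtrl and at 35.2, 45.8 and 46.1 TPM in shPCBP1, lowest in the library in which VHL-202 was highest. Without that library its log2 fold change was 0.11 (DESeq2 adjusted p = 0.0059), against -0.00 with all 6 (DESeq2 adjusted p = 0.997, edgeR adjusted p = 0.974). Of the TPM of these 2 transcripts, VHL-201 held 85.5%, 86.6% and 84.5% in shCtrl and 67.2%, 83.7% and 83.3% in shPCBP1. The mean difference was -7.49 percentage points and was -2.07 points without shPCBP1 replicate 1.

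Several of these genes are themselves HIF targets, and ACGTG is a form of the core at which HIF binds DNA. Other forms were not searched for. Windows ran from 250 bases before to 50 after the start of transcription (RefSeq, GRCh38.p14). ACGTG stood on either strand in 3 of the 11 windows of 9 members, and in 21.4% of the 35116 windows of all genes. The match is shown in capitals with its neighbouring bases.

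EGLN1 promoter, chr1:231422284-231422312, minus strand: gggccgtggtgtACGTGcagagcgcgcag
EGLN2 promoter, chr19:40799131-40799159, plus strand: cggggcgcggtcACGTGcccaccgggcga
P4HA1 promoter, chr10:73096936-73096964, minus strand: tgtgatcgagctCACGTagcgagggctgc

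The EGLN2 match lies in CACGTG and so reads the same on both strands, and the P4HA1 match is on the strand opposite to the one printed. Of these 3 genes, P4HA1 passed the gene test, as lower in shPCBP1, and EGLN1 and EGLN2 did not. HIF1A, EPAS1, HIF1AN and P4HA2, with no match in their windows, passed as well. There was no window for VHL.

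Genes that HIF is known to induce did not move one way. Of 46 such genes, 39 had an adjusted p, and 11 of these passed (3 higher, 8 lower), beside the 29.2% of all genes. Their median log2 fold change was 0.01, against 0.00 for all genes tested. Of 19 genes of glucose and pyruvate use, 9 passed (3 higher, 6 lower, median 0.01), and of the other 27, 2 passed out of 20 with an adjusted p (0 higher, 2 lower, median 0.04).

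Among targets that rose, HK2 (hexokinase, the first step of glycolysis) had 8615, 8096 and 7526 normalized counts in shCtrl and 10818, 9489 and 9527 in shPCBP1, a log2 fold change of 0.30 (DESeq2 adjusted p = 5.79e-06). ENO1 (enolase) differed by 0.13 (adjusted p = 0.000729) and SLC2A1 (the glucose transporter GLUT1) by 0.26 (adjusted p = 0.0429). The SLC2A1 call was lost without shCtrl replicate 1 (adjusted p = 0.155), shPCBP1 replicate 1 (0.198) or shPCBP1 replicate 3 (0.0655). It was also lost with TMM size factors (adjusted p = 0.0527), without independent filtering (0.0664) and with protein-coding transcripts alone (0.217). PDK1 (the kinase that restrains pyruvate dehydrogenase) had 2403, 2522 and 2383 normalized counts in shCtrl and 1736, 1841 and 1922 in shPCBP1. It fell by 0.41 on the log2 scale (DESeq2 adjusted p = 1.02e-07), without overlap of the groups.

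BHLHE40 (a transcriptional repressor) fell by 0.50 on the log2 scale (DESeq2 adjusted p = 0.000225), ALDOC (an aldolase) by 0.28 (adjusted p = 0.000257) and ENO2 (the second enolase) by 0.25 (adjusted p = 0.00388). VEGFA (the angiogenic growth factor) had 8866, 10319 and 7892 normalized counts in shCtrl and 7238, 7018 and 7693 in shPCBP1, a log2 fold change of -0.30 (DESeq2 adjusted p = 0.000243). Its groups did not overlap, but the call was lost without shPCBP1 replicate 1 (adjusted p = 0.164) or replicate 3 (adjusted p = 0.067). It was also lost with a replicate block (adjusted p = 0.168) and with transcript length offsets (-0.15, adjusted p = 0.303). VEGFA was highest in shCtrl replicate 2, without which it was at -0.19 (adjusted p = 0.00956). DDIT4, named after its values were seen, had 19045 normalized counts in that library, against 5320 and 3191 in the other shCtrl libraries. Its log2 fold change was -1.05 (DESeq2 adjusted p = 0.348). BNIP3 (a mitophagy receptor) differed by -0.11 (95% interval -0.22 to 0.01, adjusted p = 0.16). CA9 (carbonic anhydrase 9, a common marker of HIF-1 activity) was close to 0 throughout, at 0.206, 0.223 and 0.0119 TPM in shCtrl and listed at 0, 0 and 0.218 TPM in shPCBP1.

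**Figure D4:**
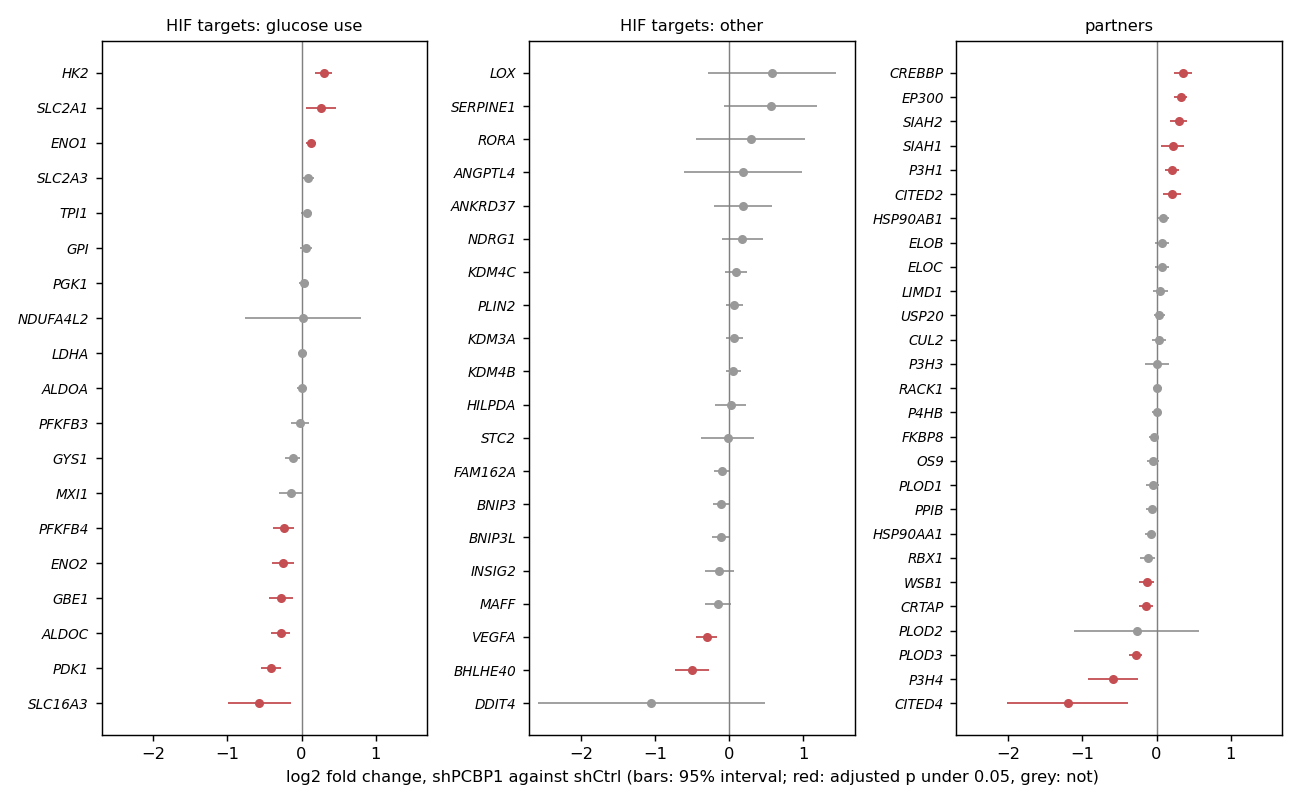
Log2 fold change of HIF target genes (left and middle panels) and of partner genes (right panel), where an adjusted p was given, in shPCBP1 against shCtrl (x axis), with 95% intervals, in red where the adjusted p was under 0.05. Points lie on both sides of 0 in each panel, with HK2 highest among glucose genes at 0.30 and CITED4 lowest among the partners drawn at -1.20.

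Among 32 genes that act with the members, 27 had an adjusted p and 11 passed (6 higher, 5 lower, median log2 fold change 0.01), beside 29.2% of all genes (16.5% higher, 12.7% lower). Of the VHL ligase partners ELOB, ELOC, CUL2 and RBX1, 0 of 4 passed in DESeq2 and 0 in edgeR. RBX1, named after its values were seen, had an unadjusted p of 0.0259 (log2 fold change -0.12, adjusted p = 0.0797). It passed with TMM size factors (adjusted p = 0.0424), with a mean count of at least 50 (0.0357) and with protein-coding transcripts alone (0.0181). Of 16 HIF partners and regulators, 14 had an adjusted p and 7 passed (5 higher, 2 lower). The 7 became 3 without shCtrl replicate 1 and 4 without shPCBP1 replicate 1 or without shPCBP1 replicate 2, each of them higher. EP300 and CREBBP, the coactivators whose binding HIF1AN controls, rose by 0.33 (DESeq2 adjusted p = 5.13e-12) and 0.36 (adjusted p = 9.74e-08) on the log2 scale. EP300 had 7771, 7243 and 7867 normalized counts in shCtrl and 9711, 9500 and 9638 in shPCBP1.

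SIAH2 (a ligase for EGLN proteins) rose by 0.30 (DESeq2 adjusted p = 2.12e-06) and CITED2 (a competitor of HIF for EP300) by 0.21 (adjusted p = 0.00382). The CITED2 call was lost without shCtrl replicate 1 (adjusted p = 0.0587), shCtrl replicate 2 (0.055) or shPCBP1 replicate 1 (0.0584), and with length offsets (0.052). CITED4, a related factor of low level, had 65.2, 60.9 and 72.2 normalized counts in shCtrl and 25.9, 26.1 and 34.6 in shPCBP1, a log2 fold change of -1.20 (95% interval -2.02 to -0.39, adjusted p = 0.0163). It was the one partner that met all of the study's thresholds, and without any 1 of 5 libraries the adjusted p was missing or between 0.0521 and 0.0735. WSB1 (a ubiquitin ligase adaptor) was at -0.13 (adjusted p = 0.0456), a call lost in 4 of 6 fits with 1 library left out (adjusted p 0.125 without shCtrl replicate 1, 0.212 without shCtrl replicate 2, 0.291 without shPCBP1 replicate 1 and 0.19 without shPCBP1 replicate 2). It was also lost in edgeR (adjusted p = 0.0685), without independent filtering (0.0705) and with protein-coding transcripts alone (0.106), and with length offsets the log2 fold change was 0.0079.

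Beside the falls of P4HA1 and P4HA2, 4 of the 9 collagen hydroxylation partners with an adjusted p passed (1 higher, 3 lower, of 12 listed), and 2 passed with length offsets (1 higher, 1 lower). Among all genes 29.2% passed. PLOD3 (a lysyl hydroxylase) had 10985, 10119 and 10220 normalized counts in shCtrl and 8777, 8682 and 8402 in shPCBP1, a log2 fold change of -0.28 (DESeq2 adjusted p = 2.58e-08). With length offsets PLOD3 was at -0.13 (adjusted p = 0.141). P3H4, a member of the prolyl 3-hydroxylase family of proteins, fell by 0.59 (adjusted p = 0.00313) and was at -0.19 with length offsets (adjusted p = 0.57). CRTAP fell by 0.14 (adjusted p = 0.00947), whereas P3H1, the enzyme with which CRTAP forms a complex, rose by 0.21 (adjusted p = 4.61e-05). P4HB, the beta subunit of the P4HA1 and P4HA2 enzymes, had a log2 fold change of 0.00 with a 95% interval from -0.07 to 0.06 (adjusted p = 0.943).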

How the data were processed

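Paired-end poly-A RNA-seq of 6 K562 libraries was deposited per library. Per the labels, the authors quantified reads with Salmon 1.10.2 (genome build hg38). The deposited estimated counts per transcript were not normalized, and the deposited TPM values carry the scaling of the authors' software for effective length. The index annotation and the strand setting are not given in the sources used here. Of 252045 transcripts per library, 251612 matched GENCODE release 44 (GRCh38), 470 of them without the version number. The rest held 0.136% to 0.147% of counts and were left out.

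Counts of a gene's transcripts were added up, rounded to whole numbers and fitted in DESeq2 1.42.0 where their sum over the libraries reached 10. The test was a two-sided Wald test with group as its term. The study's methods name DESeq2 and a Wald test but do not say whether transcript length entered the fit. The alternatives were edgeR 4.0.16, other normalizations and count filters, and offsets for the average effective transcript length of each library. Others were a replicate block, protein-coding transcripts alone, and fits with 1 library left out. Adjusted p-values are Benjamini-Hochberg over all features tested, and values that DESeq2 left missing were kept missing. Intervals are 95% Wald intervals. Transcripts were fitted the same way. Shares were tested with limma 3.58.1 on log2 ratios of TPM with a pseudocount of 0.1, for genes of at least 1 TPM and transcripts holding 5% to 95% of their gene. Sequences came from GRCh38 and RefSeq by script. Fits were tested on simulated data, where the DESeq2 transcript fit made more false calls than its threshold allows, most of them among transcripts that varied widely between libraries, so edgeR values are given beside transcript calls.

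The members and lists were chosen with earlier results of these data known. Named from the lists were, separately for HIF targets and for partners, the 5 lowest p-values among genes that rose and the 5 among genes that fell at an adjusted p under 0.05, plus VEGFA, CA9 and BNIP3. Named transcripts held at least 10% of their gene's TPM on average or passed a test.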

Additional observations from a re-analysis of the deposited data

How the results depend on the processing

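The count of 5 members passing was 2 with transcript length offsets (both lower) and between 4 and 6 with 1 library left out, and it lay within 1.5 times of 5 under the other alternatives. The count of members called was 0 under each alternative. The count of HIF targets passing (11) ranged from 8 to 11 with 1 library left out and from 9 to 12 otherwise. The count of partners passing (11) was 7 with length offsets and also 7 without shCtrl replicate 1, within a range of 7 to 11 with 1 library left out. Member transcripts passing (4) numbered 2 in edgeR, 8 with the replicate block and 6 to 10 with 1 library left out; they were 8 without shCtrl replicate 2, 9 without shPCBP1 replicate 1, 9 without shPCBP1 replicate 2 and 10 without shPCBP1 replicate 3. The cause was not tested. Member transcript shares passing stayed at 0 in each alternative. In the order of levels, 5 of 10 members held their rank in shPCBP1.

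Signs turned for values near 0 and for 2 transcripts with wide errors, EGLN3-209 (-0.22, SE 0.527) and EPAS1-205 (-0.11, SE 0.439). EGLN2 was at -0.0124 with TMM size factors, -0.0123 in edgeR, -0.0086 with a mean count of at least 50, -0.0325 with protein-coding transcripts alone, -0.0413 with length offsets, -0.0002 summed with RAB4B-EGLN2 and between -0.0146 and 0.0295 with 1 library left out. ARNT was at -0.0481 with protein-coding transcripts alone, and WSB1 at 0.0079 with length offsets. HIF1A-202 was at -0.005 with TMM size factors and -0.0046 in edgeR, and ARNT-202 at -0.0156 and -0.0148. With 1 library left out, transcript values ranged from -0.0334 to 0.1088 for HIF1A-202, -0.2969 to 0.1674 for EPAS1-205, -0.0336 to 0.0292 for ARNT-202, -0.161 to 0.0598 for ARNT-208, -0.0629 to 0.1072 for VHL-201, -0.0971 to 0.0175 for VHL-203, -0.0409 to 0.009 for EGLN2-201 and -0.5558 to 0.3053 for EGLN3-209.

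Same-numbered libraries of the 2 groups did not deviate together (r 0.0387, 0.016 and -0.0331 over 16153 genes), and shCtrl replicate 1 correlated slightly more with shPCBP1 replicate 3 (r 0.04) than with its own number. With the replicate block, the numbers of members and partners passing stayed within 1.5 times of the unblocked ones, while that of HIF partners and regulators was 4 in place of 7. VEGFA (adjusted p = 0.168) and WSB1 (0.0669) did not pass with the block, and CITED4 had no adjusted p.

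Limits are as follows. With 3 libraries a group, 95% intervals of the members were 0.16 to 0.30 wide on the log2 scale. Transcript estimates for short non-coding forms ranged down to 0 within a group. Reads shared with overlapping genes were assigned by the authors' software, and no protein was measured in these data.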
